A study of Mus musculus with 6 samples.

Results

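Branched-chain amino acid degradation was followed across irradiated mouse fibroblasts as the set of genes whose pathway annotation in the deposited table held the entry 'Valine, leucine and isoleucine degradation', with the cholesterol synthesis gene Hmgcs1 left out. The rule gave 55 of the 21878 genes in the table and used no expression value. The cells were NIH3T3 fibroblasts, an immortalised line from mouse embryos, and every library carried a radiation injury label and a time label of 72 h. In 3 libraries the cells had been given exosomes, small membrane vesicles which the series title calls plasma-derived, and in 3 libraries phosphate-buffered saline (PBS). Neither the radiation dose, the source of the plasma nor the amount of exosomes is given in the labels. Whether a group's 3 libraries stand for separate cultures is not stated, so the p-values measure the spread between libraries, which may be technical. The PBS cells were irradiated too, and unirradiated cells were not analysed here.

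Leucine, isoleucine and valine are broken down mainly in mitochondria. Transaminases first turn each amino acid into a branched-chain ketoacid, and the branched-chain ketoacid dehydrogenase, a large multienzyme complex under the control of a kinase and a phosphatase, commits the carbon to oxidation. Separate branches of dehydrogenases, hydratases, carboxylases and thiolases then lead from leucine to acetyl-CoA and acetoacetate, from valine to propionyl-CoA, and from isoleucine to both acetyl-CoA and propionyl-CoA, and propionyl-CoA enters the citric acid cycle as succinyl-CoA. Several of these enzymes also act in fatty acid oxidation, and 18 of the 55 members carry the annotation 'Fatty acid degradation' as well.

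Levels are FPKM, which corrects fragment numbers for transcript length and for library size, a unit inferred for values that the file calls only expression. Between 10080 and 10271 genes reached 1 FPKM in a library, and the authors' deposited mean normalized counts summed to 20341541 for PBS and 19824812 for exosomes. All 8 fibroblast markers, among them Col1a1, Vim and Pdgfrb, were expressed, summing to 3929 to 4386 FPKM in the PBS libraries and 5527 to 5727 in the exosome libraries. Of 7 lists of markers of other cell types, 1 gene passed the filter on low values (Cd68), and Cd3e, Lep, Ttr, Myod1 and Myh4 were listed at 0 in every library. The 6 leukocyte markers summed to 3.34 to 4.78 FPKM with PBS and 1.85 to 2.37 with exosomes. The 3 listed markers of red cells and platelets summed to 0.858 to 2.63 and 0.817 to 1.63 FPKM, and the sums of the other 5 lists lay between 0 and 0.547 FPKM. The part of these marker differences in the results was not tested.

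Of the 55 members 40 could be tested, having reached 1 FPKM in no fewer than 3 of the 6 libraries. With exosomes 26 of these 40 rose, 0 fell and 14 did not pass the threshold, a Benjamini-Hochberg adjusted p under 0.05 in limma over all 10274 tested genes. Among all tested genes 25.4% rose and 18.4% fell. No member fell at an unadjusted p under 0.05 either (0 in limma and 0 in the authors' deposited table). The median log2 change of the tested members, exosomes over PBS on the log2(FPKM + 1) scale, was 0.19, against 0.04 over all tested genes, and 36 of the 40 changes lay above 0. In 31 members all exosome libraries lay above all PBS libraries and in 0 members below, where the shares over all tested genes were 32% and 23.5%. Most rises were small, with a median fold of 1.24 in mean FPKM and a range of 1.117 to 4.68. The top of that range is Aox3, which is in these counts but passed the filter through its exosome libraries alone. The next largest fold was 1.69, for Pcca. The test compares RNA from whole cultures, in which a change in the mix of cells and a change in RNA per cell cannot be told apart.

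**Figure D1:**
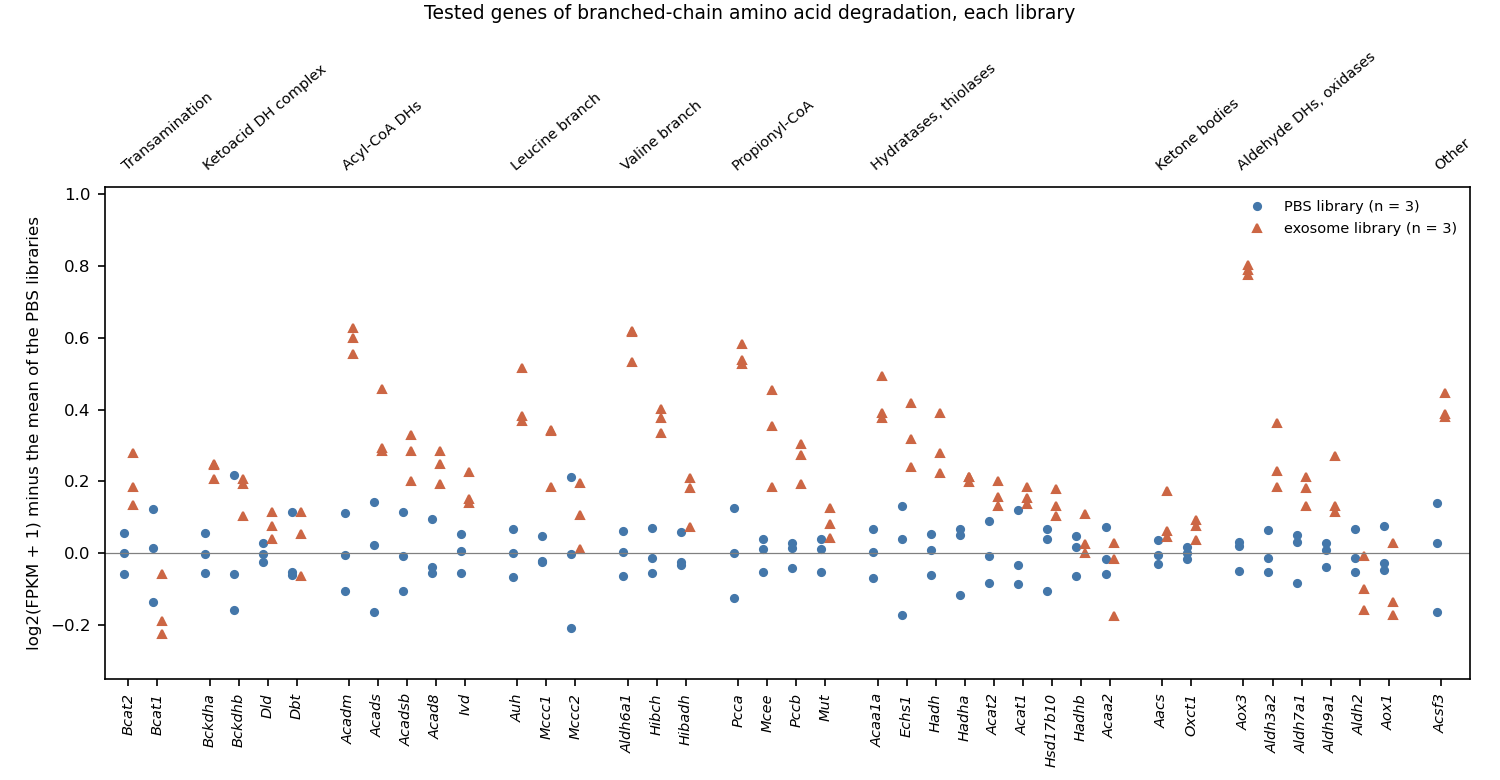
Each library's log2(FPKM + 1) minus the mean of the 3 PBS libraries (y axis) for 39 of the 40 tested members (x axis), grouped by role, with PBS libraries as circles and exosome libraries as triangles (n = 3 each). The exosome libraries lie wholly above the PBS libraries in 31 members and wholly below in 0.

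The pathway was represented in these fibroblasts by genes of very different abundance. At the top stood Oxct1, which activates ketone bodies for oxidation, at 134.7 ± 1.49 FPKM with PBS (mean ± SD, n = 3), followed by Acat2, a cytosolic acetoacetyl-CoA thiolase, at 95.0 ± 5.80 and Hsd17b10, a mitochondrial dehydrogenase of the isoleucine branch, at 60.0 ± 3.90. Lowest among tested members other than Aox3 were Mccc2 at 1.81 ± 0.409 and Pcca at 1.99 ± 0.259. Of the 40 tested members 37 have a mitochondrial term in their Gene Ontology annotation, the exceptions being Aox1, Aox3 and Aacs. In total the 55 members took 0.268% to 0.272% of the summed FPKM in the PBS libraries and 0.299% to 0.306% in the exosome libraries. Fragments behind a unit of FPKM differed widely, from 17.4 normalized counts per FPKM for Mcee to 322 for Pcca in the authors' deposited table, so an order of levels between genes rests on the transcript lengths the authors used, which were not known here.

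Of the 2 expressed transamination genes Bcat2 rose (50%, against 25.4% of all tested genes) and Bcat1 did not pass. Bcat2, the mitochondrial transaminase, stood at 4.17, 4.38 and 3.97 FPKM in PBS replicates 1 to 3 and at 4.87, 4.66 and 5.27 with exosomes. It rose by 0.20 ± 0.06 on the log2 scale (± SE, limma adjusted p = 0.0292), its 3 exosome libraries all lying above the PBS libraries. That call ended without exosome replicate 1 or 3 and without PBS replicate 1 or 3. Bcat1, the cytosolic transaminase, was at 13.9, 12.4 and 15.05 FPKM with PBS and at 13.2, 11.9 and 11.6 with exosomes. The groups overlapped and the change of −0.16 ± 0.07 did not pass (adjusted p = 0.106), although without PBS replicate 2 Bcat1 was called lower (−0.23, adjusted p = 0.0238). In the authors' deposited table Bcat2 had a fold of 1.17 (adjusted p = 0.0808) and Bcat1 a fold of 0.872 (adjusted p = 0.18), neither past the threshold. The ratio of Bcat1 to Bcat2 was 3.32 ± 0.478 with PBS and 2.49 ± 0.256 with exosomes. An exact two-sided permutation test of that ratio gave p = 0.1, the smallest that 3 against 3 libraries allow. Adjusted over the 6 gene pairs compared it was 0.15. The pairs were chosen after the values were seen, which that adjustment does not cover, and with this floor no pair could pass the threshold. The test therefore cannot decide whether a ratio differs, for this pair or for those below, and the ratios are given as description. Il4i1, a secreted amino acid oxidase, did not reach the filter, and Lao1, another amino acid oxidase, was listed at 0 in every library.

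Among the 4 subunits of the branched-chain ketoacid dehydrogenase complex Bckdha alone passed the test. That share of 25% is near the 25.4% raised over all tested genes. Bckdha encodes the alpha chain of the decarboxylating E1 component, whose phosphorylation by the kinase switches the complex off. It was at 7.49, 7.84 and 7.19 FPKM with PBS and at 9.07, 8.82 and 9.09 with exosomes, a rise of 0.23 ± 0.05 (adjusted p = 0.00586). The authors' deposited table gives a fold of 1.14 for it with an adjusted p of 0.187, so its call rests on the FPKM test. Its partner Bckdhb, the E1 beta chain, was at 8.19, 10.9 and 8.86 FPKM with PBS and at 10.8, 10.7 and 10.03 with exosomes. PBS replicate 2 lay above all exosome libraries there, and the change of 0.17 ± 0.09 did not pass (adjusted p = 0.154, but 0.00696 without PBS replicate 2). Dbt, the transacylase core, changed by 0.04 ± 0.07 (adjusted p = 0.717) and Dld, the dihydrolipoamide dehydrogenase that this complex shares with pyruvate dehydrogenase, by 0.08 ± 0.04 (adjusted p = 0.165). Dbt was at 3.62 ± 0.324 FPKM with PBS and 3.74 ± 0.294 with exosomes, Dld at 50.9 ± 0.930 and 53.7 ± 1.41. The groups overlapped in Dbt but not in Dld. The ratio of Bckdha to Bckdhb, 0.814 ± 0.0987 with PBS and 0.855 ± 0.0453 with exosomes, overlapped between the groups (exact permutation p = 0.5, adjusted 0.5).

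All 5 acyl-CoA dehydrogenases of the set rose, against 25.4% of all tested genes. These flavoenzymes take the first oxidation step after the ketoacid dehydrogenase, Ivd in the leucine, Acadsb in the isoleucine and Acad8 in the valine branch, while Acadm and Acads are best known for medium- and short-chain fatty acids. Acadm moved most, from 25.6, 27.8 and 23.8 FPKM with PBS to 40.2, 39.4 and 38.1 with exosomes. The gap between the lowest exosome library and the highest PBS library was wider than the spread within either group, and the log2 change was 0.59 ± 0.06 (adjusted p = 7.16e-05). In the authors' deposited table its fold was 1.54 (adjusted p = 6.46e-17). Acads was at 10.2, 11.2 and 8.85 FPKM with PBS and at 12.5, 12.4 and 14.2 with exosomes (0.34 ± 0.08, adjusted p = 0.00792). Acadsb was at 25.5, 27.8 and 23.7 FPKM with PBS and at 32.4, 31.4 and 29.5 with exosomes (0.27 ± 0.06, adjusted p = 0.00695). In both genes every exosome library lay above every PBS library. The dedicated valine and leucine enzymes rose too. Acad8 went from 2.88 ± 0.224 to 3.59 ± 0.146 FPKM (0.24 ± 0.07, adjusted p = 0.0150) and Ivd from 15.9 ± 0.637 to 18.0 ± 0.628 (0.17 ± 0.05, adjusted p = 0.0198). Neither passed in the authors' deposited table (adjusted p = 0.0802 for Acad8 and 0.235 for Ivd).

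In the leucine branch 2 of 4 tested members rose (50%, against 25.4% of all tested genes). Auh, which hydrates 3-methylglutaconyl-CoA and also binds AU-rich RNA, was at 2.54, 2.23 and 2.39 FPKM with PBS and at 3.84, 3.37 and 3.41 with exosomes (0.42 ± 0.07, adjusted p = 0.00118). Mccc1, the biotin-carrying alpha subunit of 3-methylcrotonyl-CoA carboxylase, was at 5.83, 6.18 and 5.82 FPKM with PBS and at 7.79, 6.89 and 7.81 with exosomes (0.29 ± 0.06, adjusted p = 0.00457). Both genes had all exosome libraries above all PBS libraries and both passed in the authors' deposited table. The carboxylase's other subunit, Mccc2, was at 1.41, 2.23 and 1.79 FPKM with PBS and at 1.81, 2.20 and 2.01 with exosomes, values that overlapped (0.10 ± 0.10, adjusted p = 0.440). The Mccc1 to Mccc2 ratio did not separate the groups (3.38 ± 0.686 and 3.77 ± 0.587, exact permutation p = 0.5, adjusted 0.5). Hmgcll1 reached at most 0.0274 FPKM in any library.

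All 3 dedicated enzymes of the valine branch rose, against 25.4% of all tested genes. Aldh6a1, the methylmalonate-semialdehyde dehydrogenase at the end of the branch, went from 6.78, 7.10 and 6.42 FPKM with PBS to 10.9, 10.2 and 10.9 with exosomes. Its log2 change of 0.59 ± 0.06 (adjusted p = 5.26e-05) was matched by a fold of 1.52 in the authors' deposited table (adjusted p = 1.05e-11). Hibch, which frees 3-hydroxyisobutyrate from its CoA ester, was at 11.2, 10.5 and 10.2 FPKM with PBS and at 14.0, 13.6 and 14.3 with exosomes (0.37 ± 0.05, adjusted p = 0.000495). Hibadh, the dehydrogenase between them, moved least, from 29.5, 31.4 and 29.6 to 35.05, 31.8 and 34.4 FPKM. Exosome replicate 2 lay only just above the highest PBS library, the log2 change was 0.15 ± 0.05 (adjusted p = 0.0355), and the authors' deposited table did not pass it (fold 1.11, adjusted p = 0.167).

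Promoter sequences are shown for Acadm, Aldh6a1 and Hibch, 3 of the members called in every alternative, as examples from the acyl-CoA dehydrogenases and the valine branch picked after their values were seen. They are the 250 bases before the annotated start from RefSeq on GRCm38.p6, which is not the mm9 build of the deposited table, read 5′ to 3′ on the gene's strand, with motif matches in capitals.
Acadm, chr3:153944644-153944893, minus strand: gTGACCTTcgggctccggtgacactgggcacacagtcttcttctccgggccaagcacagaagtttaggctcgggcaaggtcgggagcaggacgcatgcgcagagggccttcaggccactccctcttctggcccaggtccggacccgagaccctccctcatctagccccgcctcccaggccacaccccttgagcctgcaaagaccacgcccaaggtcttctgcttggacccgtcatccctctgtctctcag
Aldh6a1, chr12:84451025-84451274, minus strand: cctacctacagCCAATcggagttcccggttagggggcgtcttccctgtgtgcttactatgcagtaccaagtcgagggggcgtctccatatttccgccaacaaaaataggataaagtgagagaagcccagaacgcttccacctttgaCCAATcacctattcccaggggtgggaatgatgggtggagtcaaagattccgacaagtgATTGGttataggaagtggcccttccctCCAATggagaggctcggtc
Hibch, chr1:52844788-52845037, plus strand: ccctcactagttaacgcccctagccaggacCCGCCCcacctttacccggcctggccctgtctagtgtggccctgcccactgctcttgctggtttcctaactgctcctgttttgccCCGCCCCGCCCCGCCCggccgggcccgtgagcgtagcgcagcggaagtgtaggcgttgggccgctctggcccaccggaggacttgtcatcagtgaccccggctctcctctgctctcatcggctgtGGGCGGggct
In Acadm the capitals mark AAGGTCA on the opposite strand, the core motif of estrogen-related receptors and other orphan nuclear receptors. They mark 4 CCAAT boxes in Aldh6a1, 1 of them on the opposite strand, and 5 copies of the GC box GGGCGG in Hibch, 3 of which adjoin and share bases. Promoter windows of 300 bases (250 before and 50 after the start) were found for 33 of the 40 tested members, 28 with 1 window and 5 with 2, of which the first listed was used. On either strand, AAGGTCA was found in 1 of the 33 (3.03%), against 2.75% of the promoters of 8351 tested genes and 4.66% of all 27025. CCAAT stood in 19 of 33 (57.6%), against 39.8% and 37.9%, in 13 of 24 raised members and in 6 of the 9 others. GGGCGG stood in 18 (54.5%), against 68.1% and 35.9%. The direct repeat with a spacer of 1 base that PPAR receptors bind, which can overlap the AAGGTCA match, was found in 0 (0.0239% and 0.0444%). The ATF4-type element TGATGNAA was in 2, Acsf3 and Echs1 (6.06%, against 1.99% and 4.06%), the NRF1 palindrome in 4 (12.1%, against 11.8% and 4.78%), and TATAAA in 1, Bcat1 (3.03%, against 6.37% and 14.2%). These are matches of letters and were not tested as binding sites.

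Propionyl-CoA, the common product of valine and isoleucine, is carried to succinyl-CoA by a biotin-dependent carboxylase, an epimerase and a cobalamin-dependent mutase. The carboxylase subunits and the epimerase rose, 3 of 4 tested members (75%, against 25.4% of all tested genes), and the mutase did not pass. Pcca, the biotin-carrying alpha subunit, was at 1.74, 2.26 and 1.98 FPKM with PBS and at 3.34, 3.47 and 3.30 with exosomes (0.55 ± 0.08, adjusted p = 0.000443), with a wide gap between the groups. Its fold in mean FPKM was 1.69, and the authors' deposited table gives a fold of 1.64 (adjusted p = 4.36e-16). Pccb, the beta subunit, was at 13.7, 13.1 and 13.9 FPKM with PBS and at 16.98, 15.6 and 16.6 with exosomes (0.26 ± 0.05, adjusted p = 0.00304). The ratio of Pcca to Pccb was 0.147 ± 0.0226 with PBS and 0.206 ± 0.0142 with exosomes without overlap. Its exact permutation p was 0.1, the smallest possible here (adjusted 0.15), for a pair chosen after its values were seen. Mcee, the epimerase, went from 8.26, 8.69 and 8.88 to 9.91, 11.3 and 12.2 FPKM (0.33 ± 0.07, adjusted p = 0.00480). Mut, the mutase, was at 15.4 ± 0.530 and 16.4 ± 0.495 FPKM (0.08 ± 0.05, adjusted p = 0.193), its exosome libraries all lying above its PBS libraries.

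Enzymes shared with fatty acid oxidation rose in 6 of 9 tested cases (66.7%, against 25.4% of all tested genes). Acaa1a, a peroxisomal thiolase, went from 12.9, 11.7 and 12.3 FPKM with PBS to 17.7, 16.3 and 16.4 with exosomes (0.42 ± 0.06, adjusted p = 0.000372). Acaa2, its mitochondrial counterpart, overlapped between the groups at 14.9 ± 0.745 and 14.3 ± 1.11 FPKM (−0.05 ± 0.06, adjusted p = 0.510). Hadh, the short-chain hydroxyacyl-CoA dehydrogenase, went from 34.6, 35.7 and 32.9 to 41.9, 40.3 and 45.4 FPKM (0.30 ± 0.05, adjusted p = 0.00228). Echs1, the short-chain enoyl-CoA hydratase, went from 22.7, 28.2 and 26.4 to 32.3, 30.5 and 34.7 FPKM (0.33 ± 0.08, adjusted p = 0.00881), again without overlap. Acat1 and Acat2, the mitochondrial and cytosolic acetoacetyl-CoA thiolases, had rises of 0.16 ± 0.06 (adjusted p = 0.0495) and 0.16 ± 0.05 (adjusted p = 0.0292). Neither passed in the authors' deposited table (adjusted p = 0.0684 for Acat1 and 0.133 for Acat2). Both calls ended without exosome replicate 1 or 2 or PBS replicate 1. Hsd17b10 was at 60.0 ± 3.90 and 66.1 ± 1.75 FPKM and did not pass (adjusted p = 0.0615), though its groups did not overlap. Acaa1b, near-identical to Acaa1a, was under the filter at 0.361 to 0.772 FPKM, and reads shared between such copies make the value of each uncertain.

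Hadha and Hadhb encode the alpha and beta subunits of the mitochondrial trifunctional protein and are transcribed in opposite directions from starts 273 bases apart in RefSeq, so that 228 bases of their 300-base promoter windows are the same. The sequence before the Hadha start is printed because most of it belongs to the promoter windows of both genes. It ends at the Hadha start and does not reach the Hadhb start, and is given on the Hadha strand, with a GC box on the opposite strand in capitals.
Hadha, chr5:30154981-30155230, minus strand: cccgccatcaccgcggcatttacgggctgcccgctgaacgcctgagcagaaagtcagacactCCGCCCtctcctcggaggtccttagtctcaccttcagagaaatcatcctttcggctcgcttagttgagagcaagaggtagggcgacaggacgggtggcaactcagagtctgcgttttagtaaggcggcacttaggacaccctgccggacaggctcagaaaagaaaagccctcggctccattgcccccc
Hadha was at 38.5, 38.9 and 34.2 FPKM with PBS and at 42.8, 43.2 and 43.2 with exosomes, a rise of 0.21 ± 0.05 (adjusted p = 0.0124). Hadhb was at 7.58, 7.41 and 6.95 FPKM with PBS and at 7.31, 7.45 and 7.96 with exosomes, overlapping values (0.04 ± 0.06, adjusted p = 0.549). The authors' deposited table gives folds of 1.11 (adjusted p = 0.0452) and 1.05 (adjusted p = 0.606). A call in Hadha and none in Hadhb does not show that they differ. Their ratio was 5.08 ± 0.171 with PBS and 5.69 ± 0.230 with exosomes, with the exact permutation p at its floor of 0.1 (adjusted 0.15). At that floor, and with the pair chosen after its values were seen, the test cannot decide whether they differ.

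Ketone body genes did not pass. Oxct1, the most abundant member, was at 135, 136 and 133 FPKM with PBS and at 144, 138 and 142 with exosomes, without overlap but with a log2 change of only 0.07 ± 0.04 (adjusted p = 0.201). Aacs, a cytosolic acetoacetyl-CoA synthetase, changed by 0.09 ± 0.05 (adjusted p = 0.150), also without overlap. The testis-type transferases Oxct2a and Oxct2b were listed at 0 in at least 5 of 6 libraries.

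Among aldehyde dehydrogenases and oxidases 4 of 6 tested members rose (66.7%, against 25.4% of all tested genes). The 4 include Aox3, whose place among the tested genes came from its exosome libraries alone. Aldh3a2, which oxidises fatty aldehydes, was at 6.05, 5.68 and 5.50 FPKM with PBS and at 7.66, 6.65 and 6.90 with exosomes, groups that did not overlap (0.26 ± 0.06, adjusted p = 0.00966). Aldh7a1, of lysine breakdown, went from 13.7 ± 0.719 to 15.5 ± 0.480 (adjusted p = 0.0238) and Aldh9a1, of carnitine and polyamine metabolism, from 19.6 ± 0.489 to 22.3 ± 1.41 (adjusted p = 0.0274). Neither passed in the authors' deposited table (adjusted p = 0.172 for Aldh7a1 and 0.162 for Aldh9a1). Both calls ended without exosome replicate 3 or PBS replicate 1. Aldh2, the mitochondrial acetaldehyde dehydrogenase, overlapped between groups at 12.996 ± 0.594 and 12.2 ± 0.701 FPKM (−0.09 ± 0.06, adjusted p = 0.230). The aldehyde oxidases are molybdenum enzymes of the cytosol, and they did not move alike. Aox3 had the largest fold of any tested member, from 0.272, 0.262 and 0.204 FPKM with PBS to 1.13, 1.17 and 1.15 with exosomes, 4.68-fold in mean FPKM. It passed the filter through its exosome libraries alone, so its call (adjusted p = 3.22e-05) was favoured by the filter, and its log2 change of 0.79 ± 0.07 is shrunk by the added 1. The authors' deposited table, without that filter, gives mean normalized counts of 49.7 and 223, a fold of 4.49 and an adjusted p of 2.03e-31. Aox1, a neighbour of Aox3 in the same family, was at 2.57 ± 0.167 and 2.35 ± 0.254 FPKM (−0.09 ± 0.07, adjusted p = 0.335).

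Acsf3, a mitochondrial malonyl-CoA synthetase outside the roles above, rose from 3.797, 4.18 and 3.20 FPKM to 5.13, 5.42 and 5.16 (0.40 ± 0.08, adjusted p = 0.00304). The 15 members under the filter included Acaa1b, Ehhadh, Gm21948, Il4i1, Hmgcll1, Oxct2a, Oxct2b, Abat, Agxt2, Aldh1b1, Aox2, Aox4, Lao1 and 4930438A08Rik. Of these 5 were listed at 0 in every library, and no member of the 15 reached 1 FPKM in any.

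**Figure D2:**
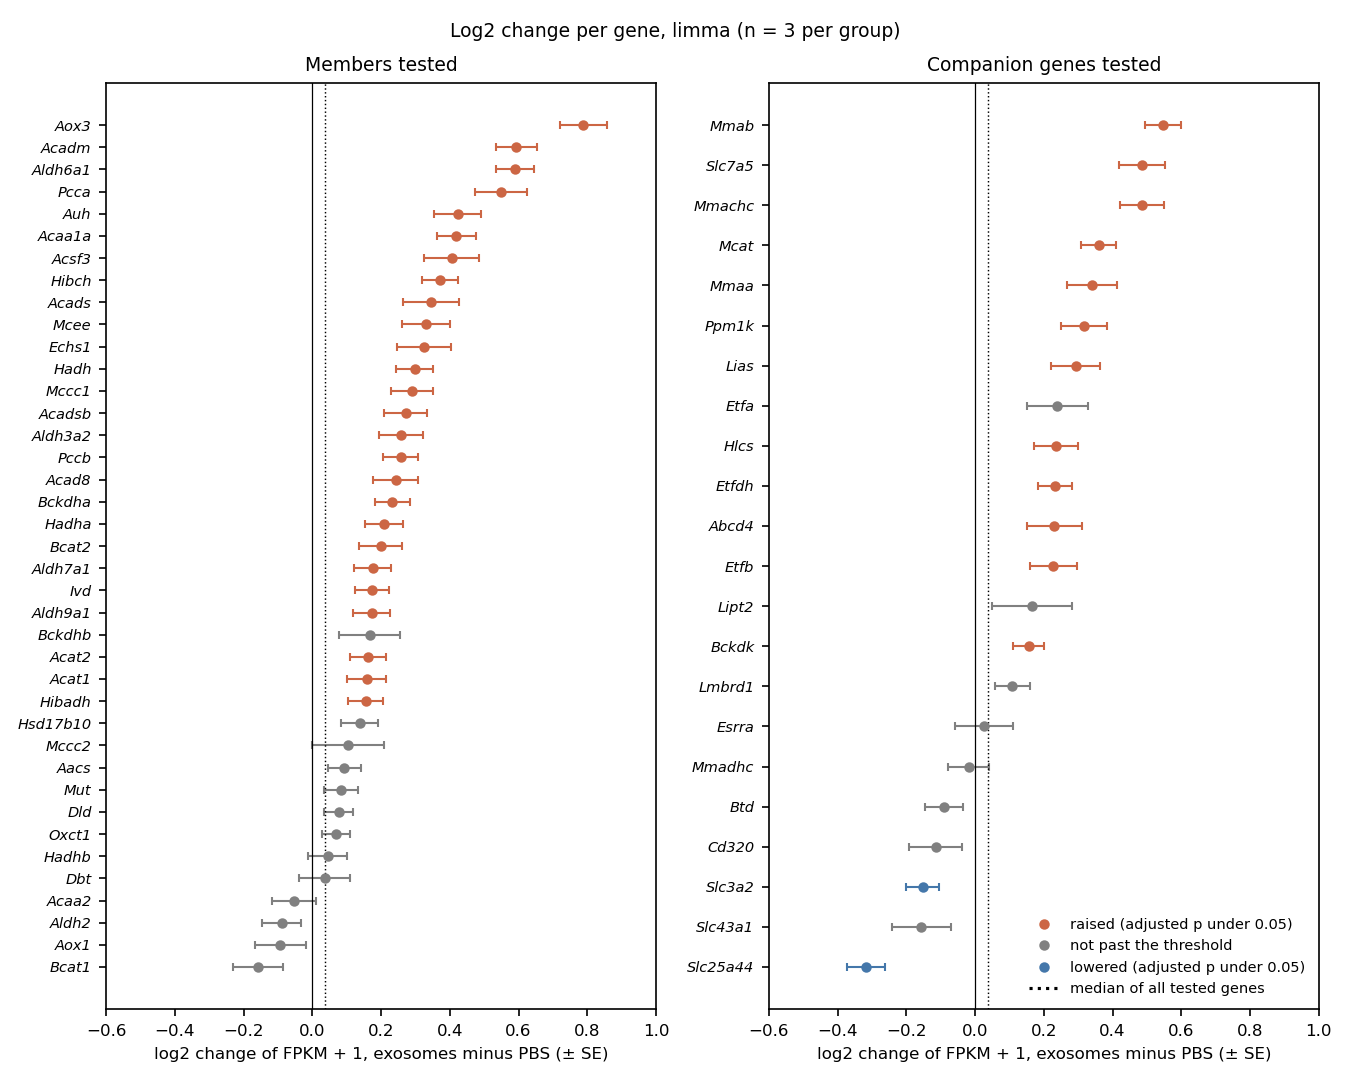
Log2 change of FPKM + 1, exosomes minus PBS, with its SE from limma (x axis, n = 3 libraries per group), for 39 of the 40 tested members (left) and 22 tested companion genes (right), coloured by call, with a dotted line at the median of all tested genes (0.04). No member is lowered, and Slc25a44 and Slc3a2 are the 2 lowered companion genes.

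Of the 26 members raised here, 17 were also raised in the authors' deposited table, which is built on counts, and 9 were not. It lists 0 members lowered and 0 raised that were not raised here. That table calls 12.4% of its 15844 genes with an adjusted p raised and 13.5% lowered, and 17 of the 50 members with an adjusted p raised. The 9 raised here alone were Bckdha, Acad8, Ivd, Aldh7a1, Aldh9a1, Acat1, Acat2, Bcat2 and Hibadh. All 9 have log2 changes of 0.26 or less in that table. The FPKM scale sits slightly higher than the count scale: the median over the tested genes was 0.04 in log2 FPKM change and −0.01 in the authors' log2 fold.

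**Figure D3:**
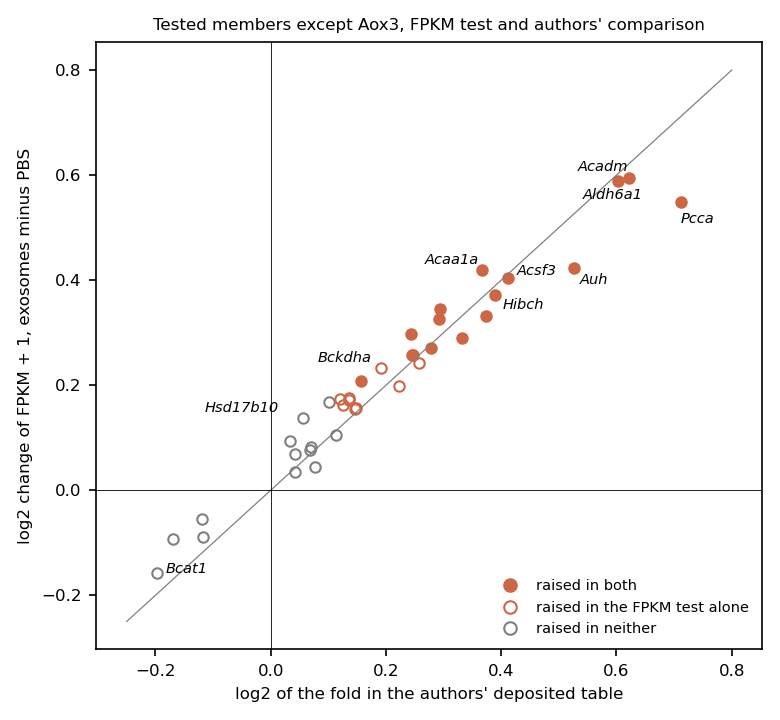
Log2 change of FPKM + 1, exosomes minus PBS (y axis), against the log2 of the fold in the authors' deposited table (x axis) for 38 of the 40 tested members, Aox3 being left out for scale, with the line of equality. Filled points are the 16 shown that were raised in both, open orange points the 9 raised in the FPKM test alone, and open grey points the 13 shown that were raised in neither.

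The calls nearest the threshold changed with the libraries used. Leaving out PBS replicate 1 brought the raised members to 18 and the raised share of all tested genes to 19.9%, ending the calls of Bcat2 (adjusted p = 0.0743), Ivd (0.0836), Acad8 (0.0590), Acat1 (0.145), Acat2 (0.118), Hibadh (0.116), Aldh7a1 (0.0993) and Aldh9a1 (0.0544). Each of these calls also ended without at least 1 other library, among them exosome replicate 1 for Ivd (0.0678), Acat2 (0.0680), Acat1 (0.0996), Bcat2 (0.0607), Hibadh (0.113) and Aldh7a1 (0.0618). Exosome replicate 2 likewise decided Acad8 (0.0562), Acat2 (0.0935) and Acat1 (0.0878), and exosome replicate 3 decided Aldh7a1 (0.0792), Aldh9a1 (0.0999), Acat1 (0.128), Bcat2 (0.109) and Hibadh (0.102). Without PBS replicate 3 the calls of Aldh9a1 (0.0728), Acat1 (0.153), Bcat2 (0.0838) and Hibadh (0.0842) ended, and without PBS replicate 2 that of Acat2 (0.0590). The other 18 raised members were called in every alternative that tested them, and 17 of these 18, all but Bckdha, were raised in the authors' deposited table too.

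Genes that serve the pathway without being in the annotated set were followed as a list of 29 companion genes. The list was chosen with earlier results of these data known. Of 22 tested, 12 rose, 2 fell and 8 did not pass, with a median log2 change of 0.23. Over all tested genes 25.4% rose and 18.4% fell, with a median of 0.04. Both regulators of the ketoacid dehydrogenase rose, although they act in opposite directions on it. Bckdk, the inactivating kinase, was at 14.5, 14.3 and 14.7 FPKM with PBS and at 15.96, 16.3 and 16.6 with exosomes (0.16 ± 0.04, adjusted p = 0.0187), a call that ended without PBS replicate 1 (0.0562), without exosome replicate 3 (0.0650) and in the authors' deposited table (0.372). Ppm1k, the activating phosphatase, was at 1.496, 1.59 and 1.69 FPKM and at 2.20, 2.38 and 2.12 (0.32 ± 0.07, adjusted p = 0.00473), with a fold of 1.41 in the authors' deposited table (adjusted p = 0.000126).

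Of the 4 tested carriers that bring branched-chain amino acids to the pathway 1 rose and 2 fell. The raised share of 25% is near the 25.4% over all tested genes, of which 18.4% fell. Slc7a5, the light chain of the large neutral amino acid exchanger at the cell surface, went from 29.6, 33.2 and 29.6 FPKM with PBS to 40.7, 42.7 and 47.3 with exosomes (0.49 ± 0.07, adjusted p = 0.000448). Its heavy chain partner Slc3a2 went from 32.1, 34.4 and 33.9 to 31.1, 29.9 and 29.1 FPKM, a change of −0.15 ± 0.05 (adjusted p = 0.0276). Light and heavy chain thus parted, with no overlap between groups in either gene. Their ratio was 0.920 ± 0.0462 with PBS and 1.45 ± 0.161 with exosomes (exact permutation p = 0.1, the smallest possible, adjusted 0.15). This pair too was chosen after its values were seen. The Slc3a2 call ended without exosome replicate 2 (0.0729), exosome replicate 3 (0.0940), PBS replicate 2 (0.0724) and PBS replicate 3 (0.0687), but the authors' deposited table also lowers it (fold 0.889, adjusted p = 0.0200). Slc25a44, the mitochondrial carrier of branched-chain amino acids, fell from 12.98, 11.5 and 12.02 FPKM to 9.84, 9.45 and 9.38 (−0.32 ± 0.06, adjusted p = 0.00165, and a fold of 0.761 in the authors' deposited table, adjusted p = 1.67e-05). The last of the 4 tested carriers, Slc43a1, did not pass (−0.16 ± 0.09, adjusted p = 0.162).

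Some companion genes supply cofactors to the carboxylases, dehydrogenases and mutase. Of those tested, 4 of 7 for cobalamin handling, 1 of 2 for biotin and 2 of 3 for lipoate rose (57.1%, 50% and 66.7%). Over all tested genes 25.4% rose and 18.4% fell. None of these cofactor genes fell in limma (0 also at an unadjusted p under 0.05 and in the authors' deposited table). Mmab, which makes adenosylcobalamin for the mutase, went from 15.3, 15.3 and 14.3 FPKM with PBS to 23.3, 22.3 and 21.4 with exosomes (0.55 ± 0.05, adjusted p = 5.25e-05). Mmachc, the first processing enzyme, went from 6.67 ± 0.444 to 9.75 ± 0.606 (adjusted p = 0.000368) and Mmaa, the mutase chaperone, from 1.74 ± 0.118 to 2.47 ± 0.218 (adjusted p = 0.00473), whereas Mmadhc, at 24.7 ± 1.49 and 24.4 ± 1.47, did not pass (adjusted p = 0.817). Abcd4, a lysosomal cobalamin exporter, also rose by 0.23 ± 0.08 (adjusted p = 0.0390), a call lost without any 1 of 5 libraries, all except PBS replicate 2, and in the authors' deposited table (0.234). Hlcs, which attaches biotin to the carboxylases, rose by 0.24 ± 0.06 (adjusted p = 0.0139, but 0.0527 without exosome replicate 3), and Btd, which recycles biotin, did not pass (−0.09 ± 0.06, adjusted p = 0.215). Of the lipoate genes Lias rose by 0.29 ± 0.07 (adjusted p = 0.00825) and Mcat by 0.36 ± 0.05 (adjusted p = 0.000500), while Lipt2 overlapped between groups (0.17 ± 0.12, adjusted p = 0.271, but 0.0328 without PBS replicate 2). Electrons from the acyl-CoA dehydrogenases pass to the flavoproteins of Etfa, Etfb and Etfdh. Etfdh rose by 0.23 ± 0.05 (adjusted p = 0.00498) and Etfb by 0.23 ± 0.07 (adjusted p = 0.0226). The Etfb call ended without exosome replicate 1 (0.0657) or 3 (0.0701) and in the authors' deposited table (0.228). Etfa, with the same size of change, did not pass (0.24 ± 0.09, adjusted p = 0.0548, but 0.0436 without exosome replicate 1 and 0.0152 without PBS replicate 2). Among transcriptional regulators Esrra was at 6.205 ± 0.696 and 6.33 ± 0.594 FPKM (adjusted p = 0.822), and Ppargc1a, Ppargc1b, Ppara and Klf15 were all under the filter.

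**Figure D4:**
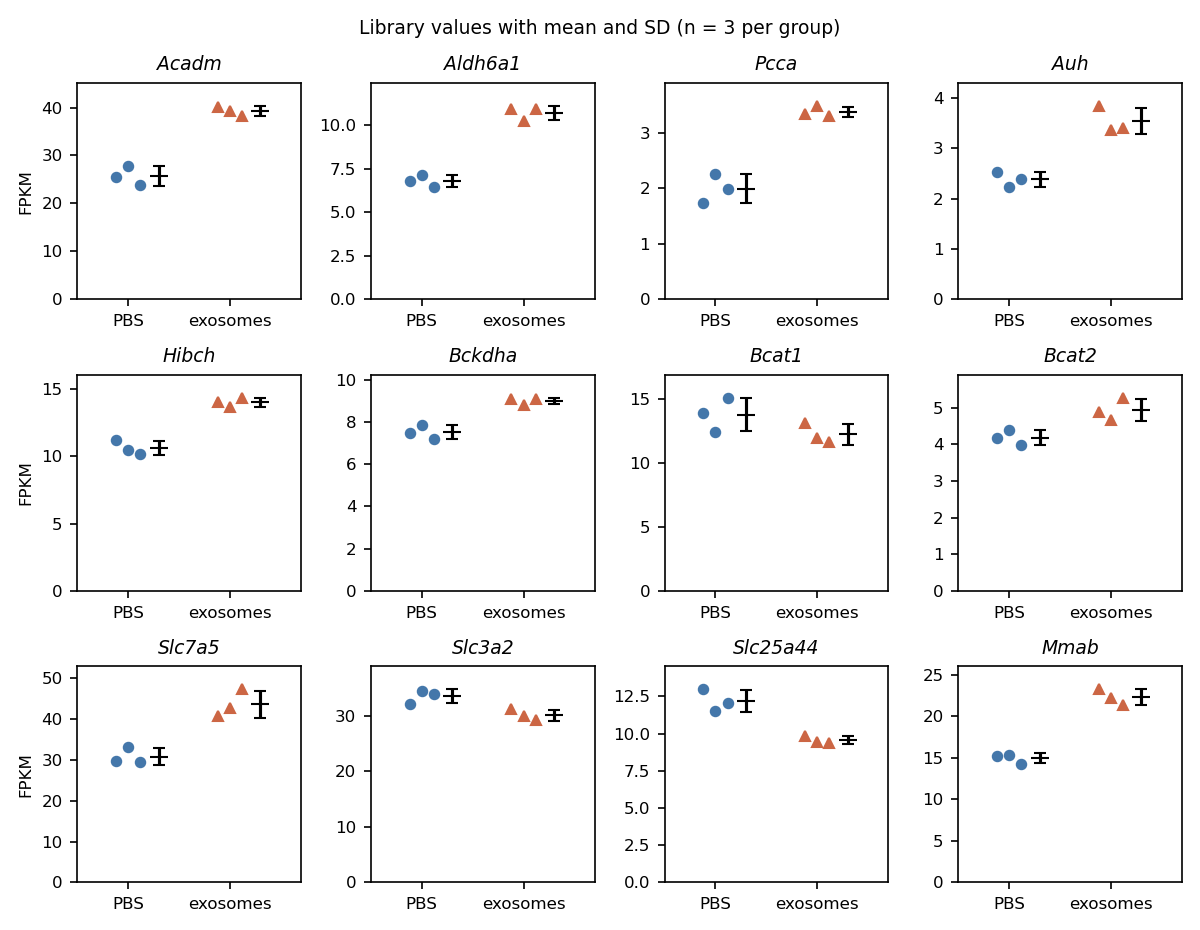
FPKM (y axis, from 0) of 8 members and 4 companion genes in each PBS library (circles) and exosome library (triangles), with the mean and SD of each group in black (n = 3). Acadm lies at 23.8 to 27.8 FPKM with PBS and 38.1 to 40.2 with exosomes, whereas the values of Bcat1 overlap.

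Related sets were counted in the same fit to place these numbers. The 15 tested members that are also annotated to fatty acid degradation had 12 raised and 0 lowered (median 0.21), and the 25 tested members outside it 14 raised and 0 lowered (median 0.17). The genes of fatty acid degradation that are no members had 7 raised and 4 lowered of 17 tested (median 0.13), and those of the citric acid cycle 8 raised and 3 lowered of 28 (median 0.07). Of 1368 other tested genes with a mitochondrial term 410 rose and 222 fell (median 0.07). The raised shares were 41.2% for fatty acid degradation outside the members, 28.6% for the citric acid cycle and 30% for these mitochondrial genes. Over all tested genes 25.4% rose and 18.4% fell (median 0.04). These are counts and shares, and the differences between the sets were not tested.

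Some members overlap other genes in the annotation. In RefSeq, on a later build than that of the deposited table, 16 of the 40 tested members overlap another annotated gene, 4 of them a protein-coding gene, and the sources used here do not say whether counting took strand into account. Echs1 overlaps Paox, which also rose (1.78 to 2.30 FPKM in the means, adjusted p = 0.0229), and Aldh7a1 overlaps Phax, which did not pass (adjusted p = 0.446). Aldh6a1 overlaps Bbof1 and Pcca overlaps Gm46487, neither of which was among the tested genes.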

How the data were processed

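RNA was isolated with the mirVana kit and sequenced as paired ends from TruSeq Stranded mRNA libraries, as the labels' protocols state. Per the submitters' processing notes, the tools included HISAT2, Bowtie2, StringTie, Cufflinks and HTSeq, with Trimmomatic, SAMtools, DESeq and build mm9, listed without roles or versions. The authors deposited FPKM per library (a unit inferred from Cufflinks, unequal column sums and the relation to length), and, per the file headers, group means of normalized counts (signal), the fold (ratio) of exosomes over PBS, and p-values with adjusted p-values. Counts per library, and so the depth of each, were not used here, and no count model was fitted. In place of the count test, the fallback of the design was used: genes reaching 1 FPKM in no fewer than 3 of 6 libraries were tested on log2(FPKM + 1) (pseudocount 1) with limma 3.58.1 in R 4.3.3 (trend and robust, group as the only term, two-sided, Benjamini-Hochberg over 10274 genes). Changes of low genes are understated on this log2(FPKM + 1) scale. The script was tested on simulated data. No pair of libraries held identical values, and 27 gene symbols turned into dates were replaced through their Entrez identifiers. The members and lists were chosen with earlier results of these data known. Values of 2 members are not reported here, and they are counted in the totals. The other members are all named: transaminases, ketoacid dehydrogenase subunits, its kinase and phosphatase and the members of smallest adjusted p with library values, the others by change, and companion genes by count and by value where called. The gene pairs compared by ratio were chosen after the values were seen. The alternatives were 2 other pseudocounts, 2 other filters, 2 scalings, another limma setting, a replicate block, and each library left out.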

Additional observations from a re-analysis of the deposited data

How the results depend on the processing

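Raised members numbered 26 in the reported test and 20 to 26 under the other pseudocounts, filters and scalings, limma without trend and robust estimation, and the replicate block, and 18 to 26 when each library was left out in turn. The raised share of all tested genes, 25.4% in the reported test, ranged from 16.4% (no filter, 22 members raised) to 25.8% (upper quartile scaling, 26 members), and was 22.3% with the block and 19.9% to 25.5% with a library left out. With all libraries kept, the 8 calls nearest the threshold also ended in part: Acat1, Acat2 and Hibadh without the filter, with median of ratios scaling and with the block, Aldh9a1 without the filter and with the block, Aldh7a1 with median of ratios scaling, Ivd and Bcat2 with the block, and Acat1 and Hibadh without trend and robust estimation. Acad8 did not lose its call in these. The block on the replicate number of the titles gave 20 raised and 0 lowered members and brought the lowered companion genes to 1. Same-numbered libraries did not deviate together (correlations across genes of −0.12, −0.02 and −0.29), while PBS replicate 3 and exosome replicate 1 reached 0.29. With 3 libraries a group such correlations cannot decide whether the numbers pair the libraries. Leaving out a library gave 0 to 1 lowered members and 1 to 2 lowered companion genes. All 26 raised members stayed above 0 in every alternative that tested them, and the calls of 18 held in all of these. Of the 14 called companion genes 9 did so. Signs turned in 4 genes, none of them called. With a library left out the log2 change ranged from −0.0041 to 0.0928 for Dbt (below 0 without exosome replicate 2), from −0.0950 to 0.0056 for Acaa2 (above 0 without exosome replicate 1), from −0.0638 to 0.0201 for Mmadhc (above 0 without exosome replicate 2 or PBS replicate 2) and from −0.0541 to 0.0917 for Esrra (below 0 without exosome replicate 3 or PBS replicate 2). Median of ratios scaling gave −0.00094 for Esrra. The cause was not tested. With 3 libraries a group, a member that did not pass may still differ.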
